A study of Mus musculus with 4 samples.

Results

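The results concern 2 stretches of the mouse genome, around Tead1 on chromosome 7 (119800000 to 120070000, 270 kb) and around Etv5 with its upstream side on chromosome 16 (22360000 to 22490000, 130 kb). They were chosen by their clusters of FOXA2 intervals in the adult list, so the number and spacing of those intervals are described here without a test. Every interval of the 4 deposited lists that overlapped a window was taken, which gave 26 of 35977 intervals in all, 20 at Tead1 and 6 at Etv5. Of these, 17 came from the adult FOXA2 list, 1 from the PD12 FOXA2 list, 2 from the adult POL2 list and 6 from the PD12 POL2 list.

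The lists come from chromatin immunoprecipitation and sequencing of whole mouse uterus. The adult uterus was taken in pseudopregnancy, the hormonal state after a sterile mating, and its library carries days 2.5 and 3.5 together. The developing uterus was taken on postnatal day 12 (PD12). At each stage 1 library was made with a goat antibody to FOXA2 and 1 with a rabbit antibody to POL2, which is RNA polymerase II with a phosphate on S2 of its C-terminal repeat. Without replicates no stage difference could be checked. The labels give no strain and say nothing of pooling.

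FOXA2 is a forkhead transcription factor. In the uterus it is found in the epithelium of the glands, which do not form normally without it. Forkhead factors recognise a short core in DNA and can bind it in compacted chromatin, often far from gene starts. POL2 phosphorylated at S2 is the elongating form of the enzyme and lies over the bodies and ends of genes in use. Tead1 encodes a TEA-domain transcription factor, the DNA-binding partner of the coactivators YAP and TAZ, which the Hippo kinase pathway holds back. Etv5, also called ERM, encodes an ETS-domain factor of the PEA3 group. Genes of that group act downstream of fibroblast growth factor signalling in several branching organs, and Etv5 is needed for the upkeep of spermatogonial stem cells in the testis.

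Of the 2 symbols, Tead1 and Etv5, 1 matched the RefSeq promoter table for GRCm38.p6. Etv5 (gene 104156) has 2 windows there, each of 300 bases with 250 before a gene start and 50 after it. They are shown so that the letters that forkhead factors recognise can be looked for in their sequence. Capitals mark a match to TGTTTAC, the core searched, or to its reverse complement GTAAACA. Both are on the minus strand of GRCm38.p6, the first at chr16:22439521-22439820 and the second at chr16:22438319-22438618. These positions belong to another build than the lists, and were not compared with the FOXA2 intervals.
Etv5 promoter 1: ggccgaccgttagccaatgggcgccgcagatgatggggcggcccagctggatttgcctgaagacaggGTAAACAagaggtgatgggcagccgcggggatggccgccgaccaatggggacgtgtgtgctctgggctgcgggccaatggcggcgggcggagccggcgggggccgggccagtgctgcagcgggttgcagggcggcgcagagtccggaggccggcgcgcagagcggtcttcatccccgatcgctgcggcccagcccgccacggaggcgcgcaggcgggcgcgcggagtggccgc
Etv5 promoter 2: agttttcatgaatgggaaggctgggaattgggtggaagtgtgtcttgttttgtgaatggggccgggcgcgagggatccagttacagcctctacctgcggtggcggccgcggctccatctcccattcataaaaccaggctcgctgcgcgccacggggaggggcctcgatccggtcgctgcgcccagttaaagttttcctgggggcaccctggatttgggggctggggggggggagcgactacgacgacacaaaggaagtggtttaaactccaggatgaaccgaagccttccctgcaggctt

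The first Etv5 promoter window held 1 match, which began 183 bases before the gene start, and the second held 0. Among all 32851 promoter windows of the table, 1199 (3.65%) held the core on either strand. The first window is also rich in G and C, with 74.0% against a median of 52.7% over the table. A match is a description of letters and does not show that FOXA2 was bound there.

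Positions below are as in the files, which name no build, and were read as mm9. Neither an annotation nor a sequence of mm9 was used, so the exon or intron at each interval is not stated. In the gene order of GRCm38, the coding neighbours of Tead1 are Parva and Rassf10, and those of Etv5 are Tra2b and Dgkg. The lists give positions alone, without heights or reads, and depth is unknown for every library. The adult FOXA2 list held 10373 intervals and the PD12 one 814, a ratio of 12.7. The POL2 lists, whose wide intervals are called domains here, held 14818 entries covering 95.2 Mb in the adult and 9972 covering 70.4 Mb at PD12. A longer list can come from more reads, from more cells with FOXA2 or from more binding per cell, and these cannot be told apart here. The lists hold no expression values, so the tissue was not checked against marker genes.

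The Tead1 window held 11 FOXA2 intervals in the adult and 1 at PD12. This ratio lay close to that of the full lists. POL2 ran the other way. It covered 7.40 kb of the window in 2 adult domains, against 38.0 kb in 6 PD12 domains, while over the full lists the adult covered 1.35 times as many bases as PD12. The Etv5 window held 6 FOXA2 intervals in the adult and 0 at PD12, and no POL2 domain of either stage. Consecutive windows of 130 kb along all chromosomes gave 38 with at least 6 adult FOXA2 intervals. Of these 38, 29 (76.3%) also held no PD12 FOXA2 interval. With the starts of the windows moved, 23 of 39 (59.0%) held none.

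**Figure D1:**
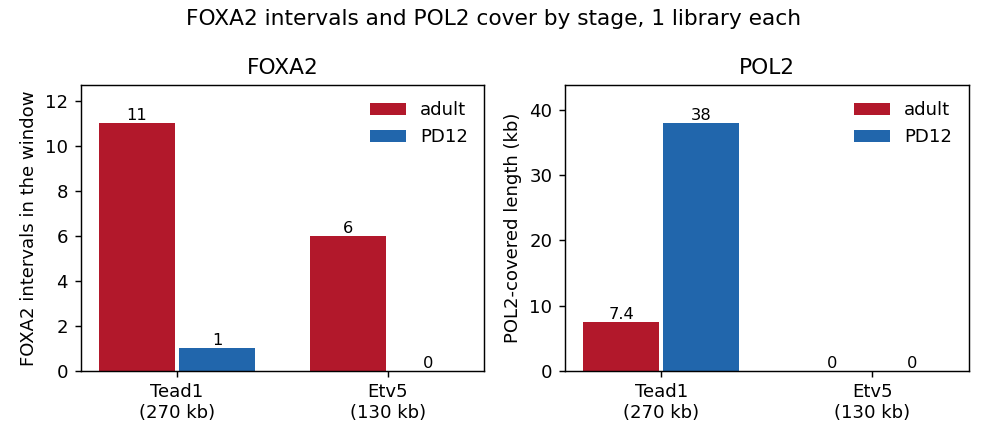
Number of FOXA2 intervals (left) and POL2-covered length in kb (right) in the Tead1 and Etv5 windows, adult in red and PD12 in blue, 1 library each and so no error bars. At Tead1 the adult had 11 FOXA2 intervals and 7.4 kb of POL2, against 1 interval and 38.0 kb at PD12; at Etv5 the adult had 6 intervals, and every other value was 0.

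At Tead1 the adult FOXA2 intervals spanned 241 kb, from 119823115 to 120063918. A pair stood at the low end, at 119823115 to 119823891 (777 bp) and 119848124 to 119848672 (549 bp). After 83.1 kb without an interval came 8 intervals between 119931729 and 119999480. A single one at 120063122 to 120063918 (797 bp) closed the window. The cluster of Tead1 is therefore an inner group of 8 with 3 others spread around it.

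The inner group began with intervals at 119931729 to 119932564 (836 bp) and 119950363 to 119951506 (1144 bp). The second of these was the widest of the 11, and 7.48% of the adult list was as wide or wider. Next came a pair at 119967156 to 119967756 (601 bp) and 119969510 to 119970398 (889 bp), with 1.75 kb between them. The later of this pair held the PD12 FOXA2 interval of the window. An interval at 119985451 to 119986012 (562 bp) came 15.1 kb after the pair and 9.77 kb before the next interval. The group ended in 3 intervals in a row at 119995780 to 119996560 (781 bp), 119997170 to 119997819 (650 bp) and 119998760 to 119999480 (721 bp).

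**Figure D2:**
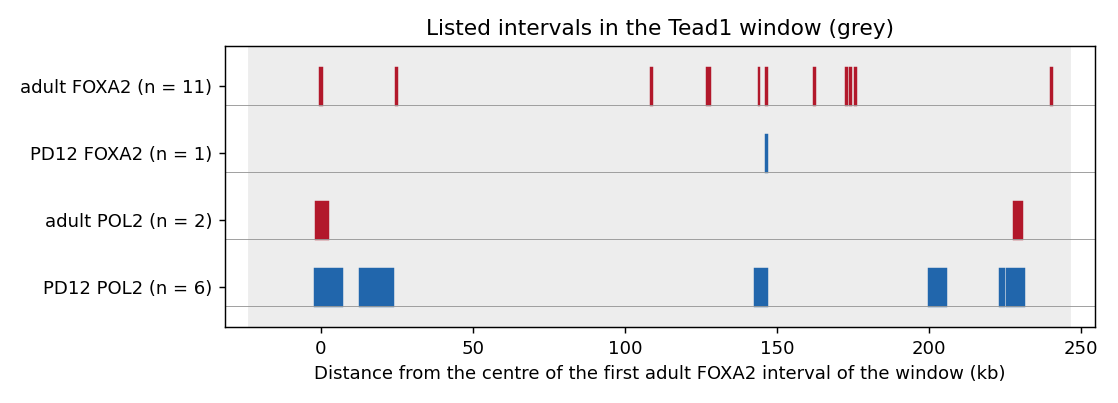
Map of the Tead1 window (grey, 270 kb). The rows are the adult FOXA2, PD12 FOXA2, adult POL2 and PD12 POL2 lists, and the x axis gives the distance in kb from the centre of the first adult FOXA2 interval. The 8 FOXA2 intervals of the inner group lie in the stretch between the 2 adult POL2 domains, and the PD12 FOXA2 interval lies at the place of one of the 8.

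Between neighbouring centres at Tead1 the 10 distances were 24.9, 83.7, 18.8, 16.5, 2.50, 15.8, 10.4, 1.32, 1.63 and 64.4 kb. Their median was 16.1 kb, against 89.2 kb over the 10353 steps of the whole adult list (interquartile range 28.2 to 245 kb). All 10 were below the median of the list, and 8 of them were below its first quartile. The spacing was uneven, with 3 steps under 5 kb and the 2 longest at 64.4 and 83.7 kb. Over the list, 6.44% of steps were within 5 kb and 11.4% within 10 kb. The PD12 FOXA2 list was sparse, with a median step of 1514 kb.

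At Etv5 the 6 adult FOXA2 intervals were gathered in 31.7 kb, from 22438914 to 22470635, and the first 78.9 kb of the window held none. The first and widest was at 22438914 to 22440401 (1488 bp), and 2.67% of the adult list was as wide or wider. It was followed at 22442153 to 22442735 by one of 583 bp. Then came 3 in a row at 22452118 to 22452947 (830 bp), 22454243 to 22454645 (403 bp) and 22455601 to 22456413 (813 bp). The last stood at 22470027 to 22470635 (609 bp). The Etv5 cluster held both wide and narrow intervals, since 96.3% of the adult list was as wide as or wider than the one of 403 bp.

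The 5 distances between neighbouring centres at Etv5 were 2.79, 10.1, 1.91, 1.56 and 14.3 kb, with a median of 2.79 kb. Of these, 3 were under 5 kb. Every step at Etv5 was shorter than the first quartile of the whole list. With 5 steps in one window and 10 in the other, the medians of the 2 windows rest on few values, and their difference was not tested.

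**Figure D3:**
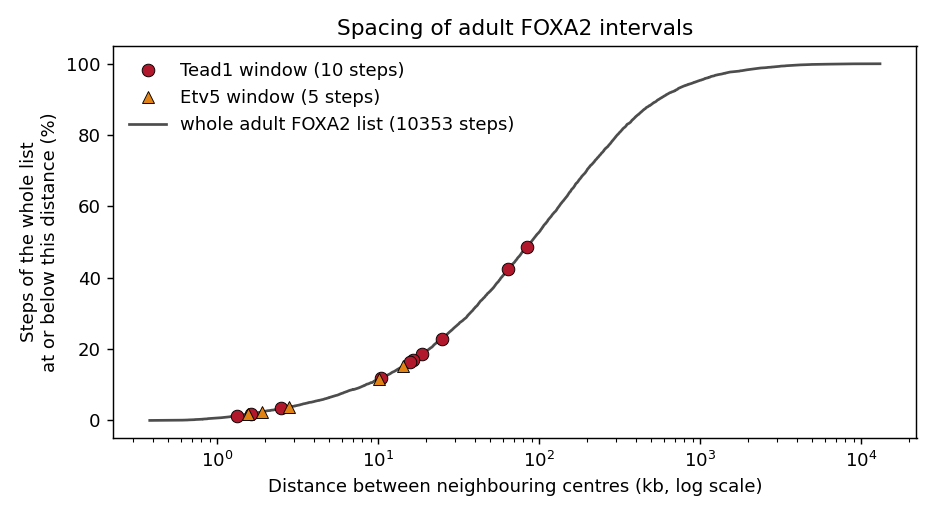
Distance between neighbouring adult FOXA2 centres (x axis, kb, log scale) against the share of all steps of the adult list at or below that distance (y axis, percent). The line is the whole list of 10353 steps, red circles are the 10 Tead1 steps and orange triangles the 5 Etv5 steps. All 15 points lie below the median of the list, 89.2 kb.

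**Figure D4:**
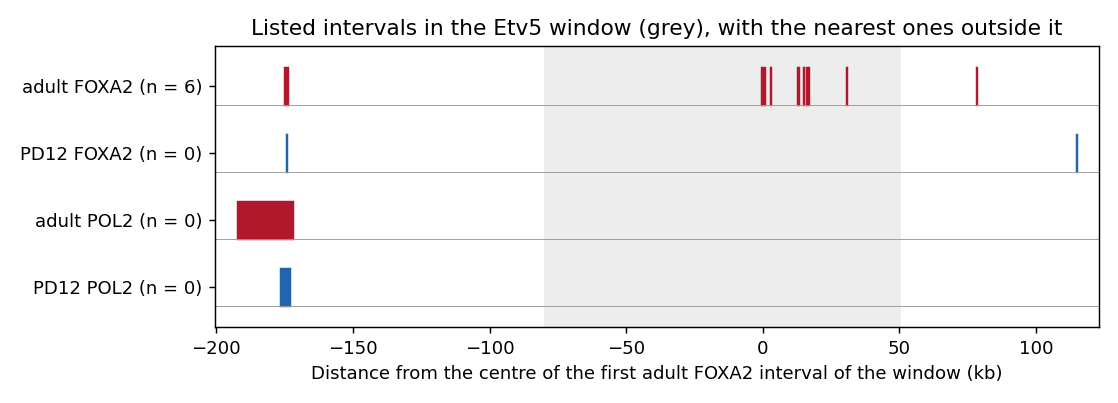
Map of the Etv5 window (grey, 130 kb), with the nearest interval of each list outside it where it lies within 110 kb. The rows are the adult FOXA2, PD12 FOXA2, adult POL2 and PD12 POL2 lists, and the x axis gives the distance in kb from the centre of the first adult FOXA2 interval. The 6 FOXA2 intervals stand together with no POL2 domain of either stage inside the window.

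Both windows held 3 adult intervals in a row within 5 kb from the first start to the last end. At Tead1 the row spanned 3.70 kb and at Etv5 4.30 kb. In the whole adult list 15 such rows were found, with 43 intervals (0.415%) in them. The windows were chosen by their clusters and the limit of 5 kb after the positions were seen, so nothing is read from this share. Neither row overlapped a POL2 domain, and the nearest adult domain was 51.5 kb away at Tead1 and 184 kb at Etv5.

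With adult FOXA2 intervals linked wherever the gap was 25 kb or less, the list formed 7947 runs, of which 6200 were single intervals. The inner group of Tead1, 67.8 kb long, was a run of 8, the most of any run. It shared that number with 1 other run, at chromosome 14, 119055106 to 119148775, which also held 1 PD12 FOXA2 interval and had no POL2 cover at either stage. The 6 intervals of Etv5 formed 1 run, and 15 runs (0.189%) had as many or more. Both windows were chosen by their clusters, so nothing is read from these ranks. The order depended on the gap. With gaps of up to 10 kb the longest run of Tead1 had 4 intervals and that of Etv5 had 5, against a highest value of 6 in the list. With gaps of up to 50 kb both had 8, against a highest value of 11. The run of Etv5 then reached 22554680, beyond the upper end of the window, and so took in intervals outside it.

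The windows were also set beside consecutive windows of equal length along all chromosomes. Of 9746 windows of 270 kb, 51.9% held no adult FOXA2 interval and 2 (0.0205%) held at least 11, as the Tead1 window did. Of 20252 windows of 130 kb, 68.6% held none and 38 (0.188%) held at least 6, as the Etv5 window did. Among the 38 is the window from 22360001 to 22490000, which holds the same 6 intervals as the Etv5 window. The Tead1 and Etv5 windows were chosen by their clusters, so nothing is read from these shares. The ends of the Tead1 window had been placed around its cluster, whereas those of the consecutive windows had not. The 11 adult intervals of the Tead1 window fell into 2 consecutive windows, 2 of them in one with 5 intervals and 9, the inner group of 8 included, in one with 10.

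Values just inside and just outside the windows were as follows. The first Tead1 interval inside stood 23.1 kb above the lower end, and the nearest one outside, at 119789097 to 119789806, stood 10.2 kb below it. At the upper end the last interval inside was 6.08 kb from the limit and the nearest outside, at 120101172 to 120101641, was 31.2 kb beyond it. For Etv5 the nearest adult intervals outside were at 22264629 to 22265763, 94.2 kb below, and at 22517615 to 22518092, 27.6 kb above. The cluster of Etv5 was thus bounded on the low side by a long stretch with no interval, and that of Tead1 had neighbours at distances like its own wider steps.

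Widths of the adult members were close to those of the list. The 11 Tead1 intervals had a median of 777 bp (549 to 1144), and the 6 Etv5 intervals a median of 711 bp (403 to 1488), against 685 bp over the adult list (interquartile range 560 to 821). At Tead1 7 of 11 and at Etv5 3 of 6 were wider than the list's median. The PD12 interval of Tead1 was 383 bp wide, against a median of 318.5 bp over the PD12 list.

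A single FOXA2 region was listed at both stages. The PD12 interval at 119969729 to 119970111 lay wholly inside the adult interval at 119969510 to 119970398 and covered 43.1% of it. Of the adult members, 1 of 11 at Tead1 and 0 of 6 at Etv5 overlapped a PD12 interval, where 5.65% of the whole adult list did. Of the PD12 list, 72.1% overlapped an adult interval, as the PD12 interval of Tead1 did. On so few members these counts were not tested against the shares of the lists. The nearest PD12 interval to the Etv5 cluster stood 83.5 kb from its last member.

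POL2 at Tead1 lay at both ends of the window in the adult and at both ends and inside it at PD12. The adult domains were at 119821800 to 119825999 (4.20 kb) and 120051000 to 120054199 (3.20 kb). At PD12 the lower end carried domains at 119821400 to 119830599 (9.20 kb) and 119836000 to 119847399 (11.4 kb). The inner part carried 119966000 to 119970199 (4.20 kb) and 120023200 to 120029199 (6.0 kb). The upper end carried 120046600 to 120047999 (1.40 kb) and 120048800 to 120054599 (5.80 kb). Each adult domain was thus contained in a PD12 domain with a wider reach.

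All 7.40 kb covered in the adult were covered at PD12, and they made up 19.5% of the PD12 cover. Both adult domains overlapped a PD12 domain, where 54.4% of the adult list did, and 2 of 6 PD12 domains overlapped an adult one, where 79.9% of the PD12 list did. Of the window, 2.74% was covered in the adult and 14.1% at PD12. Between the adult domains lay 225 kb with no adult POL2, which held 9 of the 11 adult FOXA2 intervals and the PD12 one. The longest PD12 stretch without POL2 was 119 kb and held 3 adult FOXA2 intervals. With 1 library a stage and unknown depth, a domain missing from a list does not show that POL2 was absent.

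At Tead1, POL2 cover in the adult minus that at PD12 was -30.6 kb. Among the 9746 windows of 270 kb, 26 (0.267%) had a difference at least as low. Windows with little or no POL2 cover at PD12 could not reach it, and they are counted in this share. The ends of the Tead1 window were also placed around its cluster, whereas those of the consecutive windows were not. Most windows rich in adult FOXA2 had more POL2 cover in the adult, and the full lists covered more bases in the adult too. Of the 184 windows with at least 6 adult intervals, 115 had more POL2 cover in the adult, 47 (25.5%) had less and 22 had equal cover. The limit of 6 was chosen after the values were seen. The same split was not made over all 9746 windows, so the counts are not read as a trait of windows rich in FOXA2. The median difference of these 184 was 4.0 kb, with a range of -74.6 to 82.4 kb, and 1 of them lay as low as Tead1. The consecutive windows that split the Tead1 window had differences of -12.2 and -14.2 kb, but they hold its own domains and are no separate support. In the first of them cover was 29.2 kb in the adult and 41.4 kb at PD12. Of this, 4.20 kb in the adult and domains of 9.20 and 11.4 kb at PD12 lay in the Tead1 window. The remaining cover, outside the Tead1 window, was larger in the adult.

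**Figure D5:**
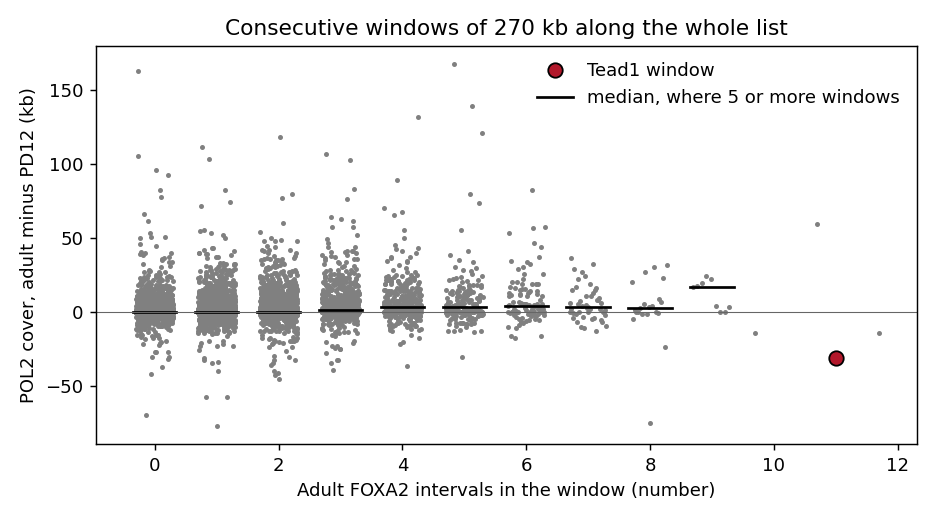
POL2 cover, adult minus PD12 in kb (y axis), against the number of adult FOXA2 intervals (x axis), for 9746 consecutive windows of 270 kb (grey points, spread sideways within each number). Black bars are medians for numbers with 5 or more windows, and the red point is the Tead1 window, at 11 intervals and -30.6 kb. It lies lower than both consecutive windows with 11 or 12 intervals, of which 1 had less POL2 cover in the adult and 1 had more. The ends of the Tead1 window were placed around its cluster, unlike those of the grey windows.

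FOXA2 and POL2 were then set against each other within the windows. At Tead1 1 of 11 adult FOXA2 intervals overlapped an adult POL2 domain, the one at 119823115 to 119823891, where 19.4% of the adult list did. PD12 domains held 3 of the 11, where 11.4% of the adult list lay in one. These were the same interval at the low end and the pair at 119967156 and 119969510. The other 8 lay in no domain of either stage, which was also true of 79.3% of the adult list.

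The inner PD12 domain at 119966000 to 119970199 had no counterpart in the adult POL2 list. It held 2 adult FOXA2 intervals and the PD12 one, and 10.6% of all PD12 domains held an adult interval. The PD12 interval overlapped it over its full width, and 20.3% of the PD12 FOXA2 list overlapped a PD12 domain. At this place the FOXA2 interval was listed at both stages and the POL2 domain at PD12 alone, the nearest adult domain being 80.8 kb away. Another adult FOXA2 interval, at 119848124, stood 724 bp beyond the end of the PD12 domain at 119836000 to 119847399 and 22.1 kb from an adult one.

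At Etv5 0 of 6 adult FOXA2 intervals lay in a POL2 domain of either stage, and 79.3% of the adult list likewise lay in none. The nearest domains lay below the window, at 171 to 202 kb from the members for adult POL2 and 172 to 203 kb for PD12 POL2. Of the 38 windows of 130 kb with at least 6 adult FOXA2 intervals, 7 (18.4%) likewise had no POL2 domain of either stage. The window that starts 1 base above the lower end of the Etv5 window is one of these 7. The consecutive windows happen to fall in step with the Etv5 window. With the starts of the windows moved, 9 of 39 (23.1%) had no POL2 domain of either stage.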

How the data were processed

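Each of the 4 groups of stage and antibody had 1 library. The authors deposited, per the file headers, the chromosome, start and end of each called interval, with no score or count. BWA is named in the submitters' processing notes; for the caller, threshold, input and build nothing is given in the sources used here. On chromosome 7, 177 intervals lay beyond the last GRCm38 gene, and positions were read as mm9. Positions were counted as inclusive, and overlap meant at least 1 bp. POL2 cover is the number of bases in domains. The windows and measures were chosen with earlier results of these data known. The text names Tead1, Etv5 and every interval in their windows. With 1 library a group no test was possible, and binomial intervals cover counting error alone. Functions were tested on simulated lists (Python 3.11.15, scipy 1.17.1, matplotlib 3.10.9). Forkhead letters in the intervals and the Hippo and growth factor gene lists were not run, because no genome or annotation of mm9 was used here.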

Additional observations from a re-analysis of the deposited data

How the results depend on the processing

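Of 52 alternatives, 17 gave 0 again for a value of 0 at Etv5, many of which could not have moved. Of the others, 26 kept within 1.5 times the reported value, or, for shares, within its exact 95% binomial interval, and 9 did not. Only the difference in POL2 cover at Tead1 could have changed direction, and under its alternatives it did not. With the 50% widest intervals or domains of each list, the adult FOXA2 count was 7 at Tead1 and 3 at Etv5, the median spacing at Etv5 was 8.17 kb, and adult POL2 cover at Tead1 was 0.0 kb. With as many of the widest adult intervals as the PD12 list holds, Tead1 and Etv5 kept 1 interval each. With 50% of both intervals covered, 0 adult intervals of Tead1 were shared with PD12. Measured from end to start, the median spacing at Etv5 was 1.75 kb. With gaps of up to 10 kb joined, the longest run of Tead1 had 4 intervals. These settings use fewer intervals, ask for more overlap or measure another distance. The difference of -30.6 kb in POL2 cover at Tead1 ran from -32.4 to -30.6 kb. Widening the window by 50 kb could not move it, since the nearest POL2 domain outside was 57.8 kb away. No paired analysis was possible because a group is a single library. The planned threshold by the authors' score had no score, and width took its place. Unknown depth limits every comparison of stages.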

Other observations

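Intervals listed at both stages stood on either side of the Etv5 window. Below it, the PD12 FOXA2 interval at 22265239 to 22265654 lay in the adult one at 22264629 to 22265763, and both lay in POL2 domains of the 2 stages, an adult one of 20600 bp and a PD12 one of 3800 bp. Above it, the PD12 FOXA2 interval at 22554115 to 22554480 overlapped an adult interval and no POL2 domain. Above the Tead1 window, 94.8 kb beyond its end, the PD12 interval at 120164775 to 120165095 also overlapped an adult interval and no POL2 domain.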
